A study of Mus musculus with 46 samples.

Results

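Satb1 and 7 non-coding transcripts of mouse chromosome 17 were followed across 46 synovial sarcoma tumours. They are 8 of the 56980 genes counted in the hSS2 tumours and of the 56941 counted in the hSS1 tumours. The 8 were chosen by their fold changes in hSS2 tumours, higher after disruption of Pbrm1 and lower after disruption of Arid1a than in control tumours. The values of those 2 comparisons are therefore given as a description without a test, and tests are kept for the groups and measures that did not choose the genes.

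Every mouse carried a human fusion gene that was switched on from the Rosa26 locus by Cre recombinase, injected as TATCre protein into a limb at 8 days of life. The hSS2 mice expressed SS18::SSX2 and the hSS1 mice expressed SS18::SSX1. The hSS2 tumours comprised 13 control tumours with the fusion alone, 8 with a conditional knockout of Pbrm1 (Pbrm1-fl), 8 with one of Arid1a (Arid1a-fl) and 8 with one of Arid1b (Arid1b-fl). The hSS1 tumours comprised 5 control and 4 Pbrm1-fl tumours. The same injected Cre switched on the fusion and removed the floxed exons, so host cells that the Cre did not reach keep intact alleles, and each library came from 1 tumour of 1 mouse. PBAF, canonical BAF and non-canonical BAF (GBAF) are chromatin remodelling complexes. PBRM1 is found in PBAF, whereas canonical BAF contains ARID1A or, in its place, ARID1B. SS18, the fusion's partner, belongs to canonical BAF and to GBAF, and the study finds the fusion in both but not in PBAF. The study proposes that the fusion activates genes through redistributed GBAF and silences others through loss of normal canonical BAF function. The comparisons asked what each subunit's disruption does to transcription in these tumours.

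SATB1 is a nuclear protein with CUT and homeobox domains that binds AT-rich stretches of DNA and folds chromatin into loops. It is best known from developing T cells in the thymus, where it organises lineage genes, and it is also made in some neurons. Of the 7 other members, 6 lie in or near the Satb1 gene and belong to a GENCODE class, TEC, of transcripts that await experimental proof and have no known function. The remaining one, 9530082P21Rik, is a spliced antisense transcript, and no function is ascribed to it here.

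Satb1 occupies chr17:51736187-51833290 of GRCm38 on the minus strand. E430014B02Rik (chr17:51745529-51748684) and C230085N15Rik (chr17:51757295-51761621) lie within its introns on the same strand. Gm36931 (chr17:51766643-51771443), also on that strand, covers a whole Satb1 coding exon of 156 bases and intronic sequence on either side. The other near members lie before the start of Satb1 on the plus strand and are read away from it: Gm37593 (chr17:51842861-51846114) begins 9.57 kb from the start, Gm37266 (chr17:51850239-51852525) 16.9 kb and Gm37176 (chr17:51859167-51863217) 25.9 kb. 9530082P21Rik (chr17:23743234-23754065, plus strand) is not a neighbour, as it lies 28 Mb from Satb1, and its exons share 200 bases with Kremen2 and 1071 with Flywch1 on the opposite strand. The libraries were made from rRNA-depleted total RNA with a kit that keeps strand, and the strand setting of the counting is not given in the sources used here. Unspliced Satb1 RNA and the 3 intronic transcripts on its strand cannot be told apart in such counts.

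**Figure D1:**
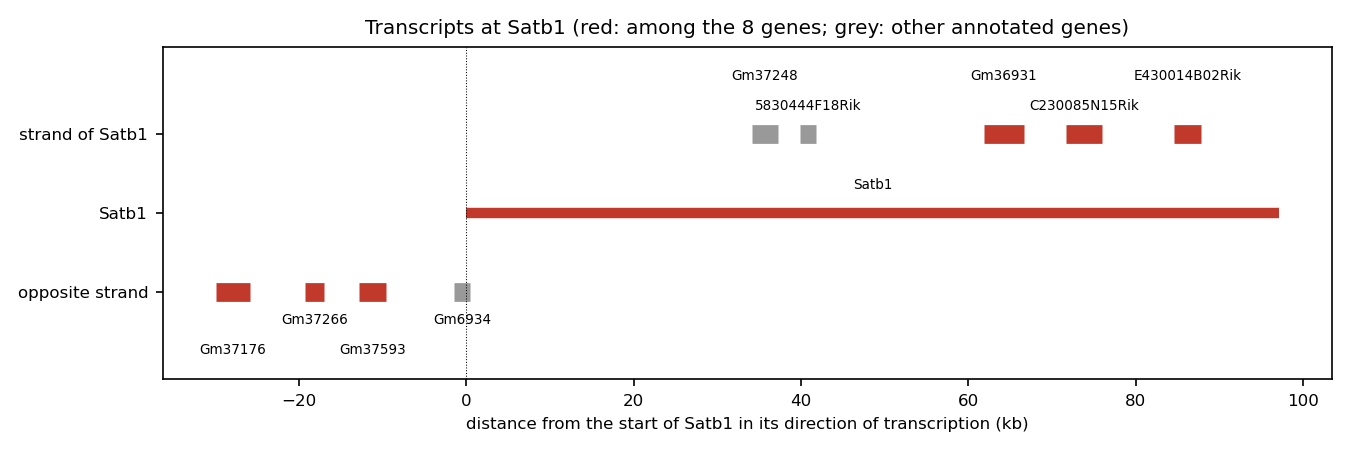
Annotated transcripts at Satb1, drawn to scale by distance in kb from the start of Satb1 in its direction of transcription, with the strand of Satb1 above and the opposite strand below. The 6 near members are in red with Satb1, 3 on each strand, and 3 further TEC transcripts that are not members are in grey.

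The sequence of Gm36931 around the shared exon is shown because reads of spliced Satb1 and of Gm36931 share it. It is printed for chr17:51767832-51768107 (GRCm38, minus strand, GENCODE M21 transcript) with the Satb1 exon in capitals. The exon makes up 3.25% of Gm36931, is held by 7 of the 10 protein-coding Satb1 transcripts and is flanked by the splice-site letters ag and gt.
Gm36931 over the Satb1 exon: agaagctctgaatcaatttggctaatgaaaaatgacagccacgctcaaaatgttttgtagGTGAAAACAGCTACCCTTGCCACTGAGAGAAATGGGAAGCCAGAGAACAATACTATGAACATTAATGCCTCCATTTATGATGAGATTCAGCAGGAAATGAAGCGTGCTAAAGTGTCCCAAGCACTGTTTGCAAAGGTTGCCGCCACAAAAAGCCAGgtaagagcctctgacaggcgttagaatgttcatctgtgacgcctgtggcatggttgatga

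The annotated 3′ ends of the near transcripts are shown because a polyadenylation hexamer or a genomic run of A there is a feature of the transcript model that the choice of members did not use. The last 80 bases were searched on the transcript's strand for AATAAA, for ATTAAA and for 8 or more A in a row. Of the 6 near transcripts, 2 held a hexamer and 1 a run of A, against 32.2% and 3.31% of 3292 TEC transcripts. The 3 with a match are printed, with the matched letters in capitals.
Gm36931 (chr17:51766643-51766722, minus strand): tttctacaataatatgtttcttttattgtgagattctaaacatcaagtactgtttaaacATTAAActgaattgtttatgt
Gm37593 (chr17:51846035-51846114, plus strand): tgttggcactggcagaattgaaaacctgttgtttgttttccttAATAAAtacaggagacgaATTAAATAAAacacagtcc
Gm37266 (chr17:51852446-51852525, plus strand): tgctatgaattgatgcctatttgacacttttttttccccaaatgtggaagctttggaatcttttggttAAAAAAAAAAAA

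RefSeq promoters (GRCm38.p6) were matched for Satb1 and 9530082P21Rik, and none of the 6 TEC transcripts had an entry. They are shown because these genes rose and fell together in the comparisons that chose them. On both strands, 6 motifs were searched. Of 32851 promoters, GGGCGG was found in 32.7%, CCAAT in 33.8%, TATAAA in 12.4%, CACGTG in 6.02%, TGANTCA in 6.75% and GGAATG in 12.6%. Of 5 RefSeq windows of Satb1, 4 had 50.8% to 58% G or C and none of the 6 motifs, among them that of the first start. The remaining window, at the second annotated start, had 80.8% G or C, a share reached by 0.992% of promoters, with 41 CG steps and 3 adjoining GGGCGG, and is printed as the one with a match. The 9530082P21Rik window had 49.6% G or C and 1 CCAAT. The matches are in capitals on the strand of the gene, where they can read as the reverse complement, and 25 bases of the Satb1 window that overlap an exon of Satb1 are left out.
Satb1 (chr17:51832673-51832897, minus strand): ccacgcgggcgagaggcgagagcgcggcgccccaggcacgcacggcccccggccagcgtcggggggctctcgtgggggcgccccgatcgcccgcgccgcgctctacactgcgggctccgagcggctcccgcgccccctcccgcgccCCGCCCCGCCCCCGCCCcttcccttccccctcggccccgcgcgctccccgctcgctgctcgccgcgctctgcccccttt
9530082P21Rik (chr17:23748986-23749235, plus strand): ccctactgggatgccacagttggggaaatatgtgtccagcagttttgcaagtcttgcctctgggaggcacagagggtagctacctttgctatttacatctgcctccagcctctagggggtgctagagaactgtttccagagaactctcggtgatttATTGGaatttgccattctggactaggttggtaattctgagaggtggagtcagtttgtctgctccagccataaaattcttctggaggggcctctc

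Libraries held 10613976 to 21294657 counts in hSS2 tumours and 10137668 to 14130024 in hSS1 tumours. Levels are given as CPM, the counts scaled to the same total in every library with TMM factors, in which 3 counts are worth 0.141 to 0.296 CPM, a limit that covers counting error only. The Pbrm1 level was 95 to 139 CPM in hSS2 Pbrm1-fl tumours, below the 171 to 316 CPM of controls, and 102 to 252 CPM against 275 to 373 CPM in hSS1. Arid1a was at 229 to 276 CPM in Arid1a-fl tumours and at 238 to 587 CPM in hSS2 controls. The library labelled control replicate 9 held the 238 CPM, within the Arid1a-fl range and so against its label. A whole-gene level alone does not settle the genotype of that tumour. Arid1b was at 111 to 347 CPM in Arid1b-fl tumours and overlapped the 222 to 686 CPM of controls, with Arid1b-fl replicate 4 highest. These counts cover whole genes, so reads of the removed exons alone are not shown. Mouse numbers in the labels fell in separate ranges for the floxed genes, so some differences are also given with controls limited to mice numbered within the same range.

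Satb1 was highest in hSS2 Pbrm1-fl tumours and lowest in Arid1a-fl tumours. Its level ran from 23.9 to 104 CPM in hSS2 control tumours, with a median of 61.1 and a mean of 61.8 ± 23.0 CPM (SD, n = 13). In Pbrm1-fl tumours it was 82.0, 129, 301, 132, 197, 118, 187 and 154 CPM, and replicate 3 stood above and replicate 1 below the other tumours. In Arid1a-fl tumours it was 31.3, 9.63, 14.4, 25.8, 27.5, 26.3, 3.26 and 6.06 CPM. Of the Pbrm1-fl tumours, 7 of 8 lay above every control tumour and 8 of 8 above every Arid1a-fl tumour, whereas 4 of 8 Arid1a-fl tumours lay below every control. The fitted log2 fold change of Satb1 was 1.39 (SE 0.34) with Pbrm1 and −1.78 (SE 0.37) with Arid1a disruption, a fold of 2.63 and of 0.292. With controls limited to the 4 and the 5 mice numbered within the floxed group's own range it was 1.42 (SE 0.52) and −1.91 (SE 0.44), and Satb1 was then no longer among the genes called with Pbrm1 disruption. Without the library labelled control replicate 9 the values were 1.45 and −1.68.

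**Figure D2:**
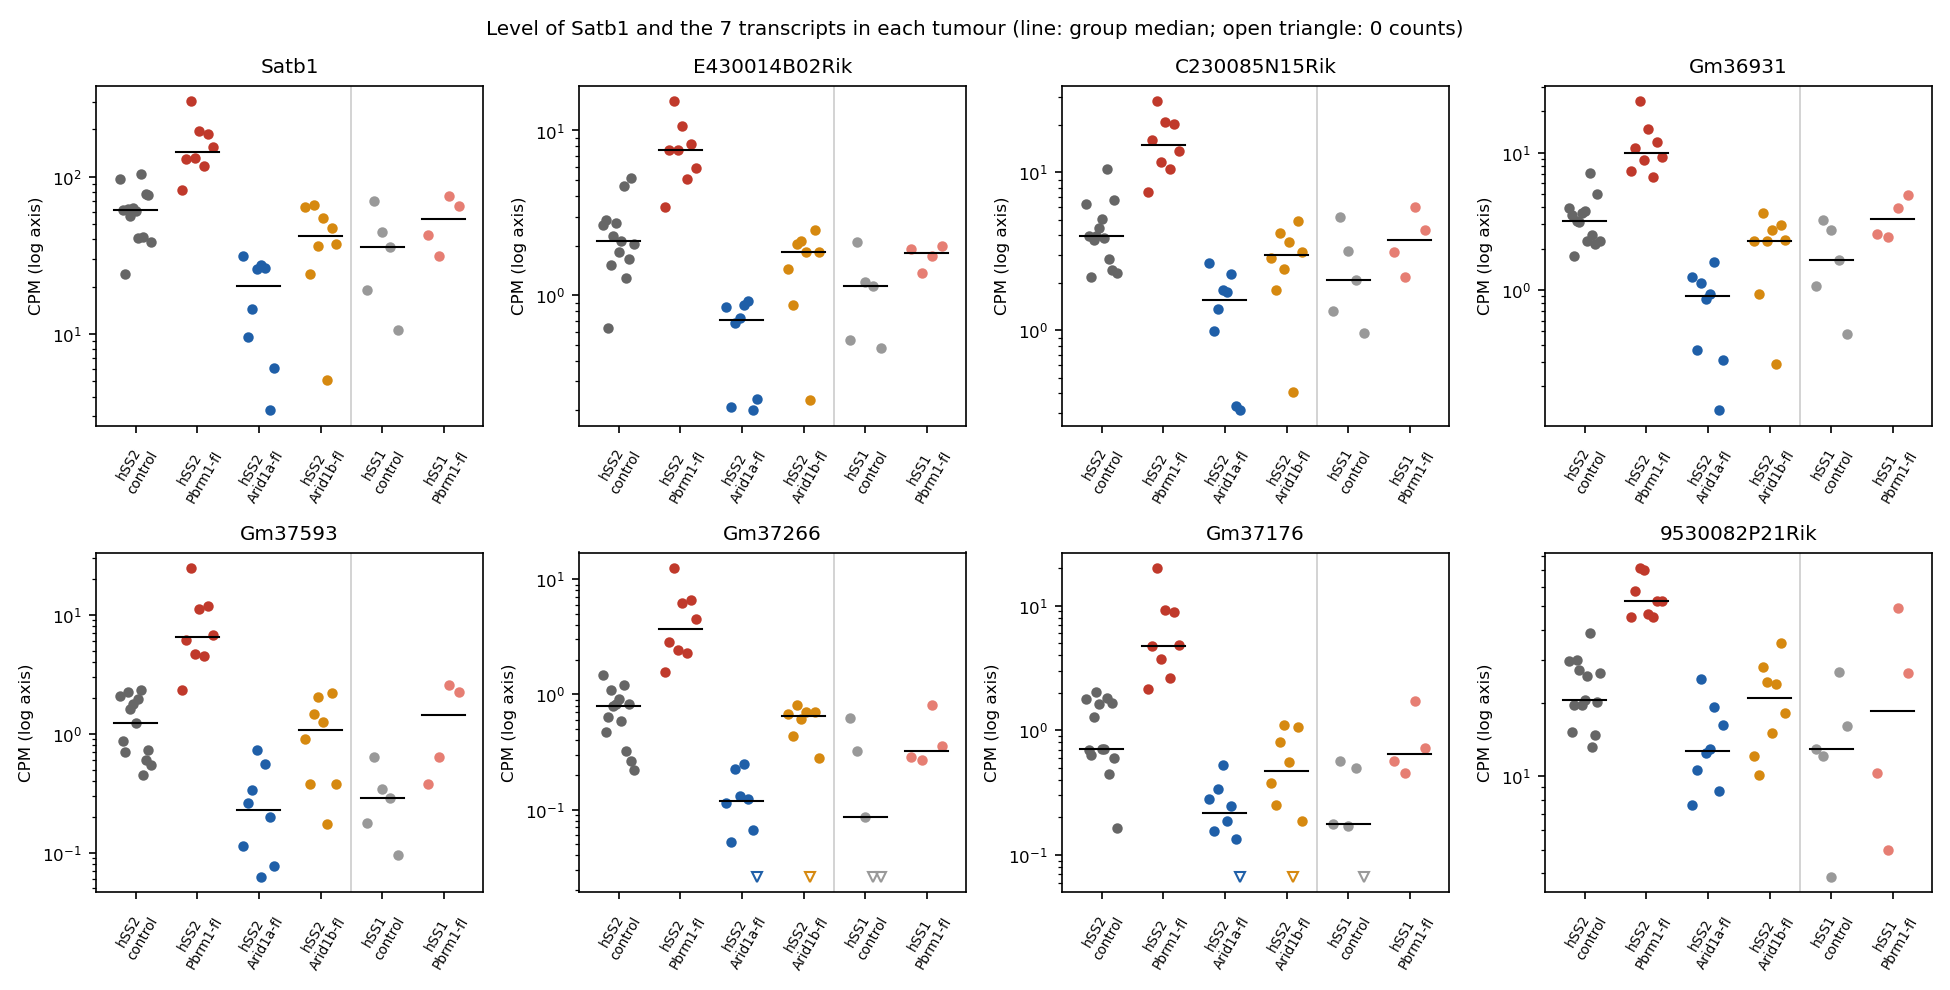
Level of Satb1 and the 7 transcripts in each tumour, in CPM on a log axis, for the 6 groups, with hSS2 groups left and hSS1 groups right of the grey line. Points are tumours, lines are group medians and open triangles are tumours with 0 counts. Satb1 medians were 61.1, 143, 20.1, 42.1, 35.6 and 53.8 CPM from left to right, and hSS2 Pbrm1-fl tumours lay above every Arid1a-fl tumour in all 8 panels.

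The order of the Satb1 medians within hSS2 was Pbrm1-fl (143 CPM), control (61.1), Arid1b-fl (42.1) and Arid1a-fl (20.1). Arid1b-fl tumours ran from 5.08 to 65.8 CPM and overlapped both neighbours in that order. In hSS1, control tumours were at 19, 69.7, 44.7, 35.6 and 10.6 CPM and Pbrm1-fl tumours at 42.7, 31.3, 75.4 and 64.9 CPM. The hSS1 groups overlapped, and only Pbrm1-fl replicate 3 was above every hSS1 control. The hSS1 and hSS2 tables were normalized apart, so their levels are set side by side without a comparison. In bulk tissue, fewer cells that hold a transcript and less of it per cell cannot be told apart.

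The 3 same-strand transcripts inside Satb1 moved as Satb1 did in the comparisons that chose them. Gm36931 ran from 1.76 to 7.06 CPM in hSS2 control tumours (median 3.16), from 6.63 to 23.6 in Pbrm1-fl (median 9.97) and from 0.133 to 1.6 in Arid1a-fl (median 0.900). All 8 Arid1a-fl tumours were below every control and 7 of 8 Pbrm1-fl tumours above every control. C230085N15Rik had medians of 3.94, 14.9 and 1.56 CPM in the same 3 groups, and E430014B02Rik 2.14, 7.62 and 0.704 CPM. The log2 fold changes of the 3 were 1.71 to 1.84 with Pbrm1 and −2.03 to −1.63 with Arid1a disruption, and their SE were 0.33 to 0.38.

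The transcripts before the Satb1 start were the members with the highest fold in Pbrm1-fl tumours. Gm37593 ran from 0.448 to 2.32 CPM in hSS2 control tumours (median 1.22), from 2.34 to 24.8 in Pbrm1-fl (median 6.49) and from 0.0626 to 0.729 in Arid1a-fl (median 0.230). Gm37266 had medians of 0.801, 3.68 and 0.118 CPM and Gm37176 of 0.715, 4.77 and 0.217 CPM. For each of the 3, all 8 Pbrm1-fl tumours were above every control tumour. Pbrm1-fl replicate 3 was the highest of its group in each, at 24.8, 12.5 and 20.1 CPM. The log2 fold changes with Pbrm1 disruption were 2.77 (SE 0.43) for Gm37593, 2.7 (SE 0.40) for Gm37266 and 2.68 (SE 0.46) for Gm37176, or 2.35, 2.33 and 2.23 at the lowest when each tumour was left out in turn. With Arid1a disruption they were −2.14, −2.53 and −2.17, from 38, 16 and 31 counts in all 8 Arid1a-fl tumours, so single Arid1a-fl values near or under 3 counts carry little information.

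9530082P21Rik, the distant member, had the smallest differences. It ran from 13.2 to 38.7 CPM in hSS2 control tumours (median 20.5), from 45 to 71.6 in Pbrm1-fl (median 52.5) and from 7.60 to 25 in Arid1a-fl (median 12.7). All 8 Pbrm1-fl tumours were above every control and 5 of 8 Arid1a-fl tumours below every control. The log2 fold change was 1.25 (SE 0.21) with Pbrm1 and −0.72 (SE 0.22) with Arid1a disruption. Kremen2, a receptor for Dickkopf proteins in Wnt signalling that shares sequence with it on the other strand, had 1.45 and −0.68. Flywch1, the zinc finger gene that shares more of it, had 0.10 and −0.26. Reads of the 3 genes can be told apart only if the counting used strand.

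As the rule fixed these 2 comparisons, their counts of calls say nothing further. By edgeR's adjusted p under 0.05, 8 of 8 members were called with Pbrm1 disruption, where 7.35% of 20083 tested genes were, and 7 of 8 with Arid1a disruption, where 3.17% were. With controls limited to mice of the same number range, 7 of 8 were called with Pbrm1 and 5 of 8 with Arid1a disruption, Satb1 being lost in the first and Gm37593 and Gm37176 in the second. With Arid1a disruption 4 were called without Arid1a-fl replicate 8, 5 without replicate 1 or 5, 6 without replicate 2 or 7, and 7 or 8 without any other tumour. Every Pbrm1-fl tumour lay above every control for 4 of 8 members (0.124% of tested genes), every Arid1a-fl tumour below every control for 1 of 8 (0.0249%), and every Pbrm1-fl tumour above every Arid1a-fl tumour for 8 of 8 (1.1%). The same 2 comparisons gave log2 fold changes of 1.75 and −2.06 for the intronic Gm37248, 1.67 and −2.15 for the intronic 5830444F18Rik and 2.59 and −2.80 for Gm6934, which overlaps the Satb1 start on the plus strand. These 3 are TEC transcripts at the locus that are not members.

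**Figure D3:**
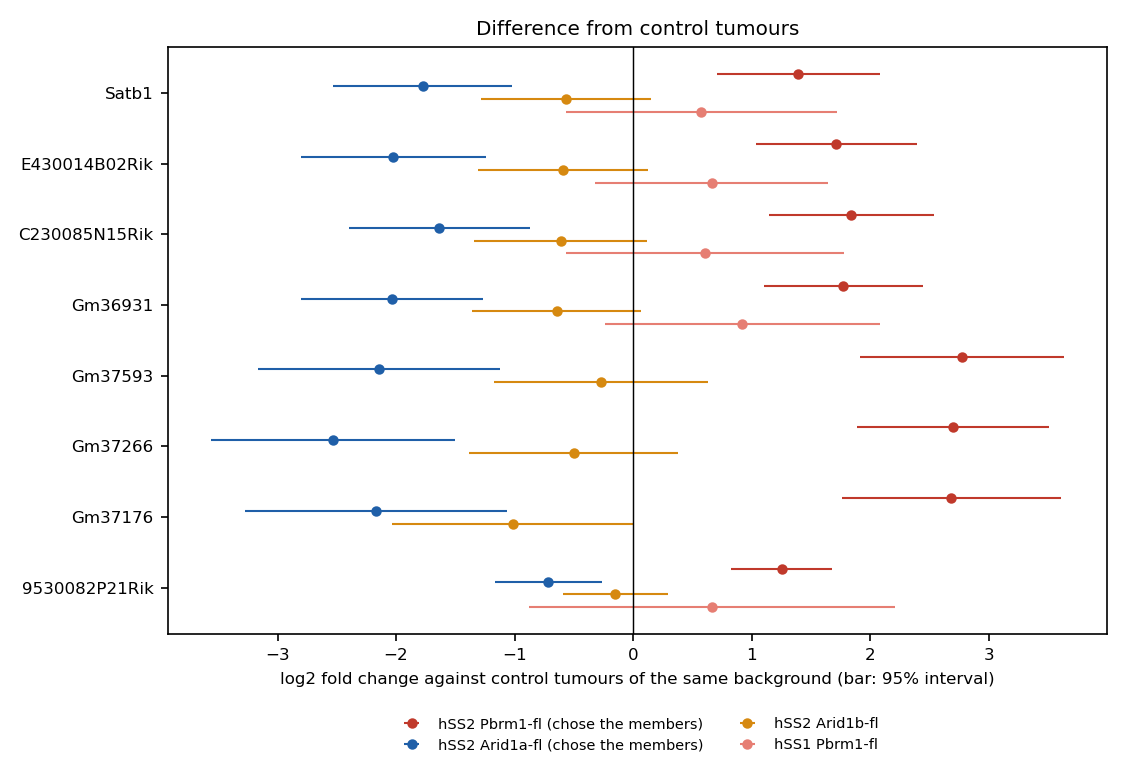
Log2 fold change of each member against control tumours of the same fusion background (points) with 95% intervals of the edgeR fit (bars). Values are 1.25 to 2.77 in hSS2 Pbrm1-fl and −2.53 to −0.72 in hSS2 Arid1a-fl, which chose the members, and −1.02 to −0.15 in hSS2 Arid1b-fl and 0.58 to 0.92 in hSS1 Pbrm1-fl, where every interval holds 0. The 3 transcripts without a pale red point failed the filter on low counts in hSS1.

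Arid1b disruption had no part in the choice of the genes, although its control tumours did, so these values and those above share their reference. Satb1 in Arid1b-fl tumours was lowest in replicate 6, at 5.08 CPM, and ran up to 65.8 CPM with a median of 42.1. The fitted difference on the log2 scale was −0.57 (SE 0.35, 95% interval −1.28 to 0.15, adjusted p = 0.83 by edgeR). All 8 members had a value below 0, from −1.02 for Gm37176 to −0.15 for 9530082P21Rik. None of 8 passed the threshold by edgeR, adjusted or not (0.0548% of genes called adjusted and 6.22% unadjusted). DESeq2 also called 0 of 8, with unadjusted p of 0.0288 for Gm37176 and 0.0448 for Gm36931.

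The interval of Gm37176 was the widest of the 8 in Arid1b-fl. It held 0 to 1.09 CPM there (median 0.470) against 0.165 to 2.03 CPM in control tumours, and the fitted difference on the log2 scale was −1.02 (SE 0.50, interval −2.04 to 0.00, unadjusted p = 0.0509, adjusted p = 0.801 by edgeR). The 3 intronic members lay between −0.65 and −0.59, with adjusted p of 0.801 to 0.812. Without Arid1b-fl replicate 6 the members were again not called, and across all single-tumour omissions Satb1 stayed between −0.71 and −0.40. With controls limited to the 4 mice numbered within the Arid1b-fl range, Satb1 was at −0.41.

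Arid1b-fl replicate 6 was the lowest of its group in Satb1 and all 6 near transcripts. It was also the lowest of 8 in the summed level of T cell markers (5.94 CPM, others 9.06 to 20.1), B cell markers (3.0 CPM, others 8.75 to 39.2), macrophage markers (53.5 CPM, others 86.1 to 457) and epithelial markers (12.9 CPM, others 63.1 to 217). The part of these cell types in its Satb1 level was not tested.

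The hSS1 tumours took no part in the choice and give a separate look at Pbrm1 disruption. There Satb1 differed by 0.58 on the log2 scale (SE 0.50, 95% interval −0.56 to 1.72, adjusted p = 0.582 by edgeR), from the 9 values given above. It ran from 0.34 without control replicate 5 to 0.97 without control replicate 2, and C230085N15Rik from 0.34 without Pbrm1-fl replicate 3 to 1.05 without control replicate 2, with neither called in any of the 9 fits. The interval of Satb1 holds 0 and also the 1.39 seen in hSS2, so neither is set aside at this depth and number of tumours. Pbrm1 itself had a log2 fold change of −0.75 here (SE 0.24, adjusted p = 0.193 by edgeR) and of −1.27 in hSS2. The study also reports a weaker loss of Pbrm1 RNA in hSS1 than in hSS2 tumours. The part of that weaker loss in the hSS1 values was not tested. Gm36931 was at 2.56, 2.44, 3.98 and 4.94 CPM in Pbrm1-fl and at 1.06, 3.22, 2.74, 1.64 and 0.480 CPM in control tumours, with 2 of 4 Pbrm1-fl tumours above every control and a fitted log2 difference of 0.92 (SE 0.51, adjusted p = 0.389 by edgeR). E430014B02Rik had 0.66 and C230085N15Rik 0.61, with adjusted p of 0.457 and 0.571.

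Of the 5 members that passed the filter on low counts in hSS1, edgeR called 0 adjusted or unadjusted. It called 1 of 17786 genes (0.00562%) adjusted and 3059 (17.2%) unadjusted, while DESeq2 called 1229 genes and 0 of the 5, whose smallest unadjusted p was 0.0866. For none of the 8 did all 4 Pbrm1-fl tumours lie above every control (3.28% of tested genes). Without control replicates 1 and 2, whose mouse numbers were outside the range of the Pbrm1-fl mice, Satb1 was at 0.82 (adjusted p = 0.607 by edgeR). 9530082P21Rik was at 10.3, 4.98, 49.3 and 26.6 CPM in Pbrm1-fl and at 12.9, 12.2, 3.86, 26.9 and 16 CPM in control tumours. The fitted log2 difference of 0.66 (adjusted p = 0.648 by edgeR) turned to −0.03 without Pbrm1-fl replicate 3.

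The 3 transcripts before the Satb1 start were near the counting floor in hSS1 and failed the filter. Gm37593 had 2, 8, 4, 4 and 1 counts in control and 4, 7, 25 and 25 counts in Pbrm1-fl tumours, so replicates 3 and 4 were above every control and replicates 1 and 2 among them. Gm37176 had 2, 7, 2, 7 and 0 counts in control and 6, 5, 17 and 8 in Pbrm1-fl tumours. Gm37266 had 7, 4, 1, 0 and 0 counts in control and 3, 3, 8 and 4 in Pbrm1-fl tumours. With the filter dropped, the log2 fold changes were 2.18 for Gm37593 (p = 0.00902, adjusted p = 0.281 by edgeR), 1.55 for Gm37176 and 1.04 for Gm37266, and DESeq2 gave Gm37593 an adjusted p of 0.0672.

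The hSS1 Pbrm1-fl tumour with the lowest Pbrm1 level, replicate 3 at 102 CPM against 209, 252 and 226 CPM in the others, also had the highest Satb1 and was the highest of the 4 in 5 of the 7 genes at the locus. That tumour had the highest summed B cell markers of its group, 67.7 CPM against 5.16 to 7.97 CPM, and the lowest summed level of 5 genes the study uses to mark tumour cells, 273 CPM against 444 to 621 CPM. Their part in its Satb1 level was not tested.

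Levels were set against Satb1 per kb of annotated exonic sequence. For Satb1 that length was the union of all its annotated exons, 19027 bases, so the percentages depend on the annotation. Reads of unspliced Satb1 RNA also enter the ratios of the intronic transcripts, as the counts cannot tell them apart. The median level per kb of C230085N15Rik was 30.8% of that of Satb1 in hSS2 control, 40.7% in Pbrm1-fl, 37.7% in Arid1a-fl, 31.7% in Arid1b-fl, 31.2% in hSS1 control and 31.4% in hSS1 Pbrm1-fl tumours. The other intronic transcripts, E430014B02Rik and Gm36931, had medians between 16% and 28.4% in the 6 groups.

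The transcripts before the start varied more against Satb1. Gm37593 had a median of 12.6% of Satb1 per kb in hSS2 control and 27% in Pbrm1-fl tumours, Gm37266 10.7% and 21.4%, and Gm37176 8.29% and 16%. In Arid1a-fl tumours the medians were 13%, 4.39% and 6.0%, from few counts. In hSS1, Gm37593 ran from 4.49% to 5.46% in control and from 5.2% to 20.2% in Pbrm1-fl tumours. The control and Pbrm1-fl ranges overlapped for all 3 in both backgrounds. The contrasts that chose the genes also set the hSS2 ratios, so these carry no test.

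**Figure D4:**
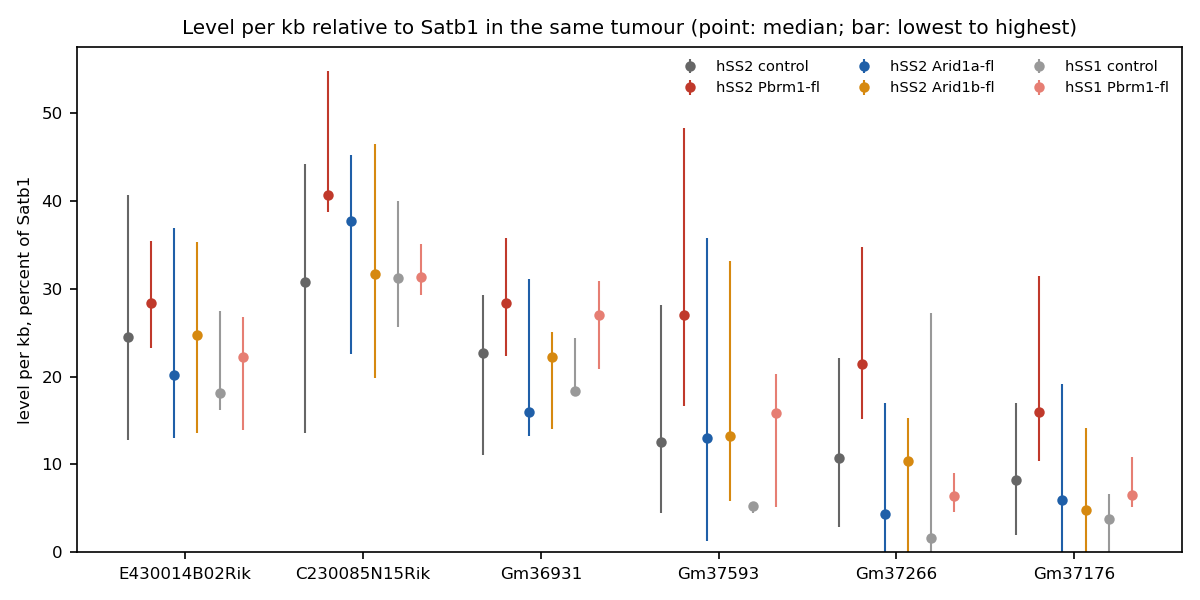
Level per kb of each near transcript as a percent of that of Satb1 in the same tumour, with the group median (point) and the lowest and highest tumour (bar) for the 6 groups. Intronic transcripts (left) had medians of 16% to 40.7%, and those before the start (right) of 1.6% to 27%, highest in hSS2 Pbrm1-fl.

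Group means chose the genes, and the spread of tumours within a group did not, so co-variation was tested within groups. Pearson r of log2 CPM between Satb1 and each of the 7 transcripts was computed in the 4 hSS2 groups, 28 relations in all, with exact permutation p for 8 tumours, 100000 resamples for 13, both two-sided, and Benjamini-Hochberg adjustment over the 28. Of these, 19 passed an adjusted p of 0.05, all positive and all between Satb1 and near transcripts. They include the intronic transcripts on the strand of Satb1, whose counts cannot be told apart from unspliced Satb1 RNA. The r of those transcripts therefore does not show co-variation of separate transcripts. With Spearman's rho 13 passed. Without the 2 tumours farthest from the group's Satb1 median, 0 of 28 passed and 9 had an unadjusted p under 0.05, in groups of 6 to 11 tumours.

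In Pbrm1-fl tumours r ran from 0.91 for Gm36931 to 0.99 for Gm37593 (rho 0.90 to 0.98), and the adjusted permutation p of the 6 near transcripts ran from 0.00139 to 0.00579. Between 0.00996% and 0.184% of all tested genes followed Satb1 as closely in those 8 tumours. Without the 2 tumours farthest from the Satb1 median r was 0.74 to 0.97. Replicate 3 was highest in Satb1 and in all 6 near transcripts, and replicate 1 lowest in 6 of the 7 genes.

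In Arid1a-fl tumours the intronic transcripts followed Satb1, with r of 0.92 for E430014B02Rik, 0.96 for C230085N15Rik and 0.93 for Gm36931 (adjusted permutation p = 0.00564, 0.00243 and 0.00638), and with 0.74 to 0.93 without the 2 farthest tumours. For the transcripts before the start r was 0.24, 0.65 and 0.66 (adjusted permutation p = 0.61, 0.108 and 0.102), at 0 to 11 counts a tumour. Whether r differed between the intronic transcripts and those before the start was not tested.

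In Arid1b-fl tumours r was 0.74 to 0.96 for the 6 near transcripts, all past the threshold (adjusted permutation p = 0.00638 to 0.0391). These relations rested on few tumours, as r fell to between −0.39 and 0.67 without the 2 farthest, one of which was replicate 6, and only 2 passed by Spearman's rho. In the 13 control tumours r was 0.45 to 0.80, with 4 of 6 past the threshold and 0.27 to 0.66 without the 2 farthest. The library labelled control replicate 9 had the highest Satb1 level of the controls (104 CPM), and without it 3 of those 4 relations passed, with Gm37176 at 0.57 (adjusted p = 0.0745 by permutation). The control tumours of a single mouse number range were fewer than 6, so r within a range was not computed.

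9530082P21Rik did not follow Satb1 within any group beyond the threshold. Its r was 0.30 in control, 0.51 in Pbrm1-fl, 0.12 in Arid1a-fl and −0.05 in Arid1b-fl tumours (adjusted permutation p = 0.362, 0.233, 0.798 and 0.916), and 14.1% to 53% of all tested genes had an r as high. Over all 37 hSS2 tumours, where the group means enter, its r was 0.69 and ranked 93 of 20082 genes. The 3 intronic members stood at ranks 1, 2 and 4 (r = 0.97, 0.96 and 0.95) and those before the start at 7, 8 and 10 (r = 0.89, 0.88 and 0.84). Over the 9 hSS1 tumours, a description, r was 0.93 to 0.98 for the intronic members and 0.22 for 9530082P21Rik.

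**Figure D5:**
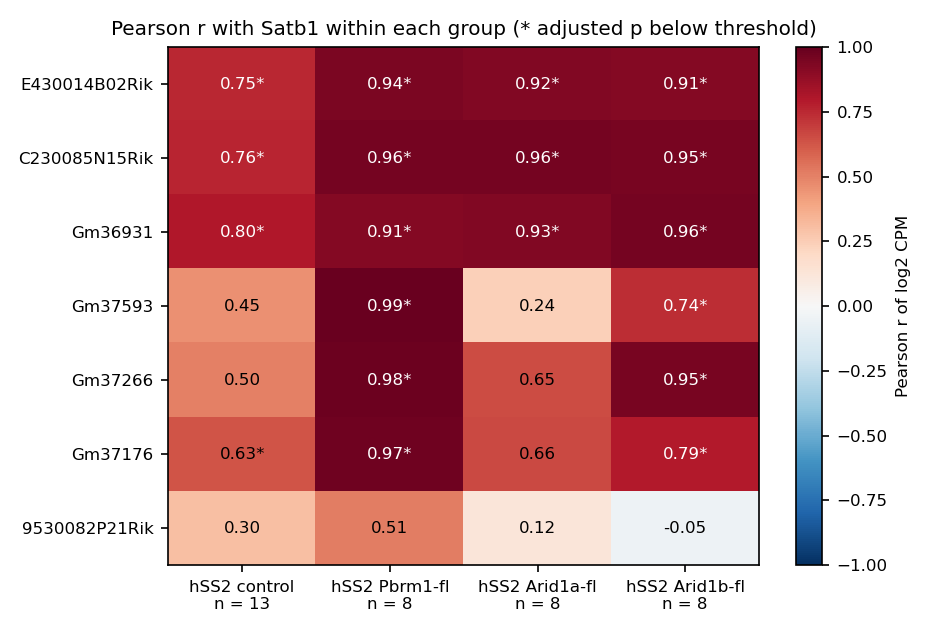
Pearson r of log2 CPM between Satb1 and each transcript across the tumours of each hSS2 group, on a scale from −1 to 1, with an asterisk where the permutation p adjusted over 28 relations was under 0.05. The 6 near transcripts reached 0.91 to 0.99 in Pbrm1-fl tumours, and 9530082P21Rik had no asterisk in any group.

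The genes outside the set with the most similar pattern over the 37 hSS2 tumours were the 3 further TEC transcripts at the locus, Gm37248 (r = 0.96), 5830444F18Rik (0.92) and Gm6934 (0.91). They were followed by Pkp2, the desmosome protein plakophilin 2 on chromosome 16 (r = 0.85), and Tm7sf3, a membrane protein gene on chromosome 6 (r = 0.82). The group means enter these values as well. Over the 9 hSS1 tumours r was 0.78 for Gm37248 and 0.85 for 5830444F18Rik, and it was 0.39 for Pkp2 and −0.13 for Tm7sf3.

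Of 17 non-member genes within 1 Mb of Satb1, the nearest coding genes were Tbc1d5, a regulator of endosome traffic 0.557 Mb away, and Kcnh8, a potassium channel 0.769 Mb away. Beyond the TEC transcripts, only Tbc1d5 passed the filter on low counts. Its r with Satb1 was 0.17 in control, −0.08 in Pbrm1-fl, −0.89 in Arid1a-fl and 0.25 in Arid1b-fl tumours, given without a test. Tbc1d5 had medians of 70.0 to 74.6 CPM in the 4 hSS2 groups, and log2 fold changes of 0.12 with Pbrm1, 0.14 with Arid1a, 0.03 with Arid1b and 0.09 with hSS1 Pbrm1 disruption (adjusted p = 0.992 for Arid1b-fl and 0.836 for hSS1 by edgeR). Kcnh8 had 0 to 3 counts per hSS2 tumour, 13, 9, 14, 0 and 0 counts in hSS1 control and 0 counts in the 4 hSS1 Pbrm1-fl tumours. Of the neighbourhood genes tested, 4 in Arid1b-fl and 3 in hSS1, none passed the threshold by edgeR, adjusted or not, and DESeq2 called 0 with 1 unadjusted p under 0.05, in hSS1.

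Genes related to SATB1 in structure or function were counted in the same fits. Of 5 other CUT-class homeobox genes tested, which encode transcription factors with the same kind of DNA-binding domain, all 5 had a log2 fold change above 0 in hSS2 Pbrm1-fl tumours (median 0.48). Of these, 1 was called, beside 7.35% of all tested genes, as Cux1 rose past the threshold, at 0.35 (adjusted p = 0.0405 by edgeR). Onecut1, a liver and neural transcription factor, had 1.54 (adjusted p = 0.0805 by edgeR). Onecut2, Onecut3 and Cux2 had 0.48, 0.81 and 0.25. In Arid1a-fl tumours 4 of 5 were below 0 (median −0.17) and none was called, with Onecut1 at −1.43 and Onecut2 at −1.27 (adjusted p = 0.158 and 0.0775 by edgeR). The direction with Pbrm1 disruption was not shared by hSS1, where 0 of 5 were above 0 in Pbrm1-fl tumours (median −0.33). With Arid1b disruption 2 of 5 were above 0 (median −0.08).

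In the other lists too a single call stood beside 7.35% of all tested genes called with Pbrm1 and 3.17% with Arid1a disruption, so the lists are not set apart by them. Among 13 reported partners of SATB1, 1 was called in 1 contrast: Kat2b, an acetyltransferase, fell by 0.61 on the log2 scale in Arid1a-fl tumours (adjusted p = 0.0288 by edgeR). Among 15 loop and boundary factors, Hmga2, an architectural protein that also binds AT-rich DNA, fell by 0.96 in Pbrm1-fl tumours (adjusted p = 0.0314 by edgeR). Of 8 T lineage genes tested, Runx3, a transcription factor of cytotoxic T cells, rose by 1.10 in Pbrm1-fl tumours (adjusted p = 0.0294 by edgeR). The medians of the partners, the loop factors and the T lineage genes were 0.17, −0.05 and 0.49 in Pbrm1-fl and 0.12, 0.12 and −0.80 in Arid1a-fl tumours, beside −0.0042 and −0.04 over all genes tested. No gene of the 4 lists was called in Arid1b-fl or hSS1 Pbrm1-fl tumours, where 5, 13, 15 and 8 genes and 5, 13, 15 and 5 genes were tested. By unadjusted p under 0.05 edgeR gave 0 in Arid1b-fl and 3 in hSS1, where 6.22% and 17.2% of all tested genes were under it.

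T cell markers were followed because Satb1 is abundant in T cells. Cd3e, a subunit of the T cell receptor complex, had medians of 0.256 CPM in hSS2 control, 0.580 in Pbrm1-fl, 0.128 in Arid1a-fl and 0.709 in Arid1b-fl tumours, and Cd3d was at 0 counts in 7 of 8 Arid1a-fl tumours. The 10 listed markers did not all follow that order. Medians in Pbrm1-fl were above those of controls for 6 and below for 4 (Cd3g, Cd5, Cd28 and Cd247), and in Arid1a-fl they were below for 8 and above for 2, Zap70 (0.512 CPM in control, 1.72 in Arid1a-fl) and Cd2 (0.064 and 0.184). The summed level of these 10 markers was 8.67 to 47 CPM in control, 8.30 to 55.7 in Pbrm1-fl, 5.60 to 13.3 in Arid1a-fl and 5.94 to 20.1 in Arid1b-fl tumours. Lck alone had medians of 5.68, 6.79, 5.36 and 5.04 CPM in these groups, above those of the Cd3 genes. The T cell score is the mean log2 CPM of the 9 markers that passed the filter on low counts. The Pbrm1-fl tumour with the highest Satb1 level, replicate 3, had the lowest T cell sum of its group (8.30 CPM, others 13.2 to 55.7). Within Pbrm1-fl tumours Satb1 and the T cell score ran in opposite directions (r = −0.88, rho = −0.93, −0.73 without the 2 farthest tumours), which missed the threshold (adjusted permutation p = 0.0571). The sign differed between groups. In Arid1b-fl tumours r was 0.76 (adjusted permutation p = 0.0798), and 0.30 without the 2 farthest tumours. It was 0.41 in Arid1a-fl and −0.05 in control tumours (adjusted permutation p = 0.479 and 0.907).

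Over 11 marker lists and 4 hSS2 groups, 44 relations with Satb1 were computed. Of these, 1 passed the threshold, the neuron score in Arid1b-fl tumours, which was lower where Satb1 was higher (r = −0.81, rho = −0.88, adjusted permutation p = 0.0218, r = −0.82 without the 2 farthest tumours). By Spearman's rho 0 of 44 passed, and 9 had an unadjusted p under 0.05 by Pearson's r.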

How the data were processed

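Total RNA of whole tumours was depleted of rRNA and sequenced as stranded libraries, 1 per tumour. Per the submitters' processing notes, reads were aligned to mm10 with STAR 2.7.11 and assigned to genes with featureCounts 1.6.3. The authors deposited raw counts per gene in 1 table for hSS2 and 1 for hSS1 tumours. Annotation release and strand setting are not given in the sources used here. GENCODE M21 supplied positions, lengths and transcript sequences, and RefSeq the promoters.

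Counts were scaled by TMM and tested with edgeR 4.0.16 (filterByExpr, robust quasi-likelihood fits, R 4.3.3), all 37 hSS2 libraries in 1 fit and all 9 hSS1 libraries in another, with Benjamini-Hochberg adjustment over all tested genes and a threshold of 0.05. Co-variation used log2 CPM with a prior count of 2. The scripts were tested on simulated data. Replicates were separate mice by the numbers in their titles, and no pair of libraries of a group agreed within counting noise (smallest chi-square per degree of freedom 16.9).

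The members and lists were chosen with earlier results of these data known. Named were the 8 members, the 3 targeted genes, the nearest coding genes, neighbourhood and list genes past the threshold, 5 CUT-class genes and the 5 genes with the highest r with Satb1 over hSS2 tumours. Kremen2, Flywch1 and single cell type markers were added after their values were seen. Another gene of a list is not reported here. Alternatives for the fits were RLE in place of TMM factors in edgeR, the DESeq2 1.42.0 Wald test and no filter. Controls of the same mouse number range and omission of single tumours were used as well. For co-variation they were Spearman's rho, a prior count of 0.5, library size alone and omission of the 2 tumours farthest in Satb1. Added after seeing the data were co-variation without control replicate 9 and Spearman's rho for marker scores.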

Additional observations from a re-analysis of the deposited data

Results flagged for a closer look

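In 4 of 40 sets of 1 gene in 1 group of 4 to 10 tumours, the highest tumour stood apart from the others by Dixon's criterion at 95%, which chance alone meets in about 1 of 20 sets. Of these, 3 were the transcripts before the Satb1 start in the same tumour, hSS2 Pbrm1-fl replicate 3. Gm37593 was at 24.8 CPM there (404 counts) and at 11.8 CPM in the next tumour. Gm37176 was at 20.1 CPM (327 counts) against 9.27 CPM, and Gm37266 at 12.5 CPM (204 counts) against 6.61 CPM. That tumour also had the highest Satb1 level, 301 CPM against 197 CPM in the next. Its summed T cell, endothelial and fibroblast markers were the lowest of its group, at 8.30, 108 and 480 CPM. The next lowest sums were 13.2, 213 and 483 CPM, so the fibroblast sums were almost tied. The fibroblast sum of that tumour was mostly Pdgfra, which was at 421 to 545 CPM across the group. Pdgfra was also at 258 to 483 CPM in hSS2 control tumours. The part of these cell types in the values was not tested. The 4th was Gm37266 in hSS1 Pbrm1-fl replicate 3, at 0.816 CPM from 8 counts, against 0.360 CPM in the next tumour.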

How the results depend on the processing

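Of 265 log2 fold changes of single members in Arid1b-fl and hSS1 under other settings, 264 kept their direction and their side of the threshold, and the exception was 9530082P21Rik in hSS1, at −0.026 without Pbrm1-fl replicate 3 and up to 1.04 without another tumour. The counts of called members were 0 in every setting for Arid1b-fl and hSS1 Pbrm1-fl. In the comparisons that chose the members, all 336 values of the other 7 kept their direction and moved by less than 1 SD of the tumours, while calls were lost: with in-range controls 7 of 8 remained with Pbrm1 and 5 of 8 with Arid1a disruption, where single omissions left 4 to 8. Satb1 ran from 1.19 to 1.48 with Pbrm1 and from −1.94 to −1.62 with Arid1a disruption when single hSS2 tumours were left out. Co-variation depended more on the setting: 19 of 28 relations passed, 18 without control replicate 9, 13 by Spearman's rho and 0 without the 2 tumours farthest in Satb1, a setting with fewer tumours. Of 119 alternative r, 87 kept their side, 25 lost the threshold and 7 changed sign. The last were by rho Gm37593 and 9530082P21Rik in Arid1a-fl (both −0.048) and 9530082P21Rik in Arid1b-fl (0.17), and without the 2 farthest tumours Gm37593 (−0.12) and 9530082P21Rik (−0.22) in Arid1a-fl, 9530082P21Rik in Pbrm1-fl (−0.28) and E430014B02Rik in Arid1b-fl (−0.39), the cause of which was not tested. For marker scores 1 of 44 relations passed by r and 0 by rho. Over all genes, calls were 1476 for Pbrm1-fl, 477 with in-range controls and 1231 without a filter, and 637 for Arid1a-fl, 1405 and 243 under the same settings, and in hSS1 were 1 by edgeR and 1229 by DESeq2. Depth limits the transcripts before the start in Arid1a-fl and hSS1 tumours, which held 0 to 25 counts. The study states that littermates served as controls. The labels give mouse numbers but no litters, so no paired analysis was run.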
